A study of Mus musculus with 4 samples.

Results

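The cells described here are monocytes of the mouse digit, taken from single-cell RNA sequencing of second phalanx (P2) tissue as those cells in which Ear2, Adgre4, Plac8 and Ly6c2 together gave at least 4 UMIs. A UMI is a molecular tag that counts 1 captured RNA molecule. A barcode was kept if it had no fewer than 500 genes and 1000 UMIs and if mitochondrial genes took no more than 10% of its UMIs. A myeloid gate then took cells with no Cdh5 UMI, at least 3 UMIs of Csf1r, Lyz2 and C1qb together, and fewer than 10 UMIs of the neutrophil granule genes Camp, Ngp and Ltf. Within the gate the 4-gene sum also had to exceed the sums of 4 other gene sets, led by Lyve1, Ms4a7, Acp5 and Cd209a. The rule found 378 monocytes among 39266 kept cells, of which 9112 passed the gate. The values of the 24 genes in the rule chose the cells and are given only as a description.

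The series followed amputation of the P2 digit in 8-week-old FVB/NJ wild-type mice. There is 1 library for each of 4 groups: unamputated digits, described as homeostatic, and digits at 12, 17 and 28 days post amputation (dpa), described as fibrosing. The labels name pooled male and female mice for each library and do not give the number of animals. Tissue was dissected by hand, digested with trypsin and collagenase I, cleared of red cells, sorted for live cells that excluded propidium iodide, and run on the 10x 3′ v3 chemistry. With 1 library a group there is no replicate check and no test between groups, and every interval below is an exact 95% interval that covers counting error only.

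Monocytes are made in bone marrow from cycling progenitors and reach tissue through blood. Classical mouse monocytes carry high Ly6c2 and the chemokine receptor Ccr2, enter injured tissue and can become macrophages or antigen-presenting cells. Non-classical monocytes, which express Ear2, Adgre4, Ace and Treml4 and little Ly6c2, patrol the vessel wall. Plac8 is expressed by both kinds and by other leukocytes.

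The 12 dpa library stood apart in sex. Of its 39 monocytes, 28 were called female and 0 male from Xist and Y-linked genes, at a minimum of 2 UMIs. The unamputated, 17 and 28 dpa libraries had 177, 49 and 19 monocytes called male and 0 called female. Sex and time after amputation therefore cannot be told apart at 12 dpa. Monocytes of the unamputated library were also the most deeply counted, with a median of 9162.5 UMIs, against 6579 at 12 dpa, 5776.5 at 17 dpa and 4585 at 28 dpa. No monocyte barcode was shared between libraries, while 13 to 57 kept barcodes were shared by a pair of libraries. Doublets were not removed: Scrublet marked 46 of 218, 3 of 39, 7 of 82 and 6 of 39 monocytes in the order unamputated, 12, 17 and 28 dpa.

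Monocytes were a small share of the cells in every library and were most frequent in the unamputated digit. They numbered 218 of 11954 kept cells there, or 1.82% (1.59 to 2.08). The share was 0.562% (0.400 to 0.767) at 12 dpa with 39 cells, 0.943% (0.751 to 1.17) at 17 dpa with 82 cells and 0.334% (0.238 to 0.456) at 28 dpa with 39 cells. The unamputated interval lay above all 3 others, and the 12 dpa interval overlapped those of 17 and 28 dpa. As a share of gated myeloid cells the order was the same, at 7.94%, 2.75%, 4.04% and 1.34%. When each kept cell of at least 3000 UMIs was thinned to that number before the rule was applied, the shares were 1.24%, 0.476%, 0.651% and 0.197%. A lower share can reflect fewer monocytes or more of other cells, and these cannot be told apart.

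**Figure D1:**
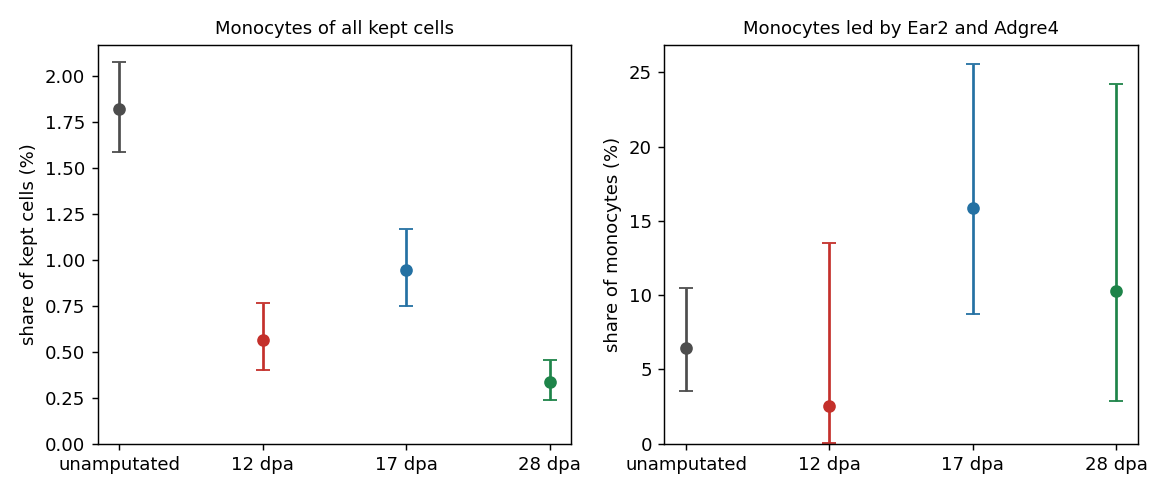
Monocytes as a percentage of kept cells (left) and the percentage of monocytes in which Ear2 and Adgre4 exceeded Plac8 and Ly6c2 (right) in each library, with exact 95% intervals as bars. The unamputated library is highest on the left at 1.82%, and the intervals on the right overlap.

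Some cells lay at the edges of the rule. Exactly 4 UMIs of the marker sum were found in 11, 4, 6 and 4 monocytes in the order of the libraries, while 16, 1, 5 and 6 gated cells in which this sum led had only 3. A further 85, 14, 13 and 5 gated cells reached 4 UMIs and were left out because another sum was as high. The median sum among the monocytes was 19, 10, 12 and 8 UMIs.

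Levels are given as CPM, in which the summed UMIs of all monocytes of a library are scaled to a fixed total. Among the markers that chose the cells, Plac8, which encodes a small cysteine-rich protein, was the most widespread, with a UMI in 91.7% of unamputated monocytes, 94.9% at 12 dpa, 95.1% at 17 dpa and 94.9% at 28 dpa. Ly6c2, a surface protein of classical monocytes, stood at 1022 CPM in the unamputated library, 415 at 12 dpa, 667 at 17 dpa and 152 at 28 dpa. Its level was thus lower in the 3 injured libraries. Adgre4, an adhesion receptor of patrolling monocytes, went the other way at the later times, with 88.0, 54.3, 215 and 178 CPM. Ear2, a secreted ribonuclease, was at 225, 23.3, 151 and 112 CPM and was lowest at 12 dpa. Ly6c2 and Ear2 have near-identical copies, Ly6c1 and Ear1, so the division of reads between each pair is uncertain.

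Within the rule's own genes, Plac8 and Ly6c2 together usually outnumbered Ear2 and Adgre4. Plac8 is common to both kinds of monocyte, so this order does not name a kind, and at 28 dpa Ly6c2 was seen in 41.0% of cells and Adgre4 in 48.7%. Ear2 and Adgre4 led in 14 of 218 unamputated monocytes, or 6.42% (3.56 to 10.5). They led in 1 of 39 at 12 dpa (2.56%, 0.0649 to 13.5), 13 of 82 at 17 dpa (15.9%, 8.72 to 25.6) and 4 of 39 at 28 dpa (10.3%, 2.87 to 24.2). All of these intervals overlapped. When the rule was applied to cells thinned to 3000 UMIs, the share at 17 dpa was 3.92%, below the 7.30% of the unamputated library. Outside the rule, 83.0%, 79.5%, 72.0% and 64.1% of monocytes had a Ccr2 UMI. At least 1 UMI of the non-classical genes Ace, Treml4, Cd300e or Spn was present in 39.0% (32.5 to 45.8), 33.3% (19.1 to 50.2), 35.4% (25.1 to 46.7) and 61.5% (44.6 to 76.6) of cells, in the order of the libraries. The 28 dpa interval overlapped the 3 others. These shares were not thinned to a common depth.

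Monocyte genes that the rule did not use were high in these cells, and macrophage genes were low. Against the other gated cells of the same library, 75 of 2474 genes compared (3.03%) were at least 2-fold higher in monocytes in all 4 libraries, and 78 of 2891 (2.70%) were at least 2-fold lower. The cells were chosen by their expression, so these counts describe them and are not a test. The highest-ranking gene was Ifitm6, an interferon-inducible transmembrane protein of myeloid cells, at 169, 77.6, 226 and 123 CPM in monocytes against 10.7, 1.46, 6.15 and 4.38 in the other gated cells. Chil3, a chitinase-like protein of monocytes and neutrophils, was at 277, 81.5, 251 and 297 CPM against 13.8, 9.32, 4.07 and 1.12. Its monocyte level was lowest at 12 dpa, and it exceeded the other gated cells in each library. Itgal, the alpha chain of the leukocyte integrin LFA-1, was at 100.3, 77.6, 176 and 185 CPM against 26.1, 20.2, 20.2 and 7.74. The other leading genes were Plcb1, Dgkg, Ms4a4c, Klra2, Thbs1, Mcemp1, Atp11b, F10, Gpr141, Ifitm3, Samsn1 and Plbd1.

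C1qa, a chain of the complement component C1q, was at 18.8 to 163 CPM in monocytes against 706, 1046, 1464 and 1597 in the other gated cells. Trem2, a lipid-sensing receptor of tissue macrophages, was at 59.7, 89.3, 42.4 and 68.8 CPM against 436, 615, 581 and 616. Pf4, a chemokine of resident macrophages and platelets, was at 8.20, 0, 9.42 and 116 CPM against 511, 584, 1513 and 2373. Of the C1qa UMIs at 28 dpa, 95.6% came from 1 cell. The defining eosinophil genes Prg2 and Epx were at 0 in all 4 libraries. The eosinophil list summed to 19.4 to 130.1 CPM, with Ear1 at 126, 19.4, 124 and 76.1 CPM.

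**Figure D2:**
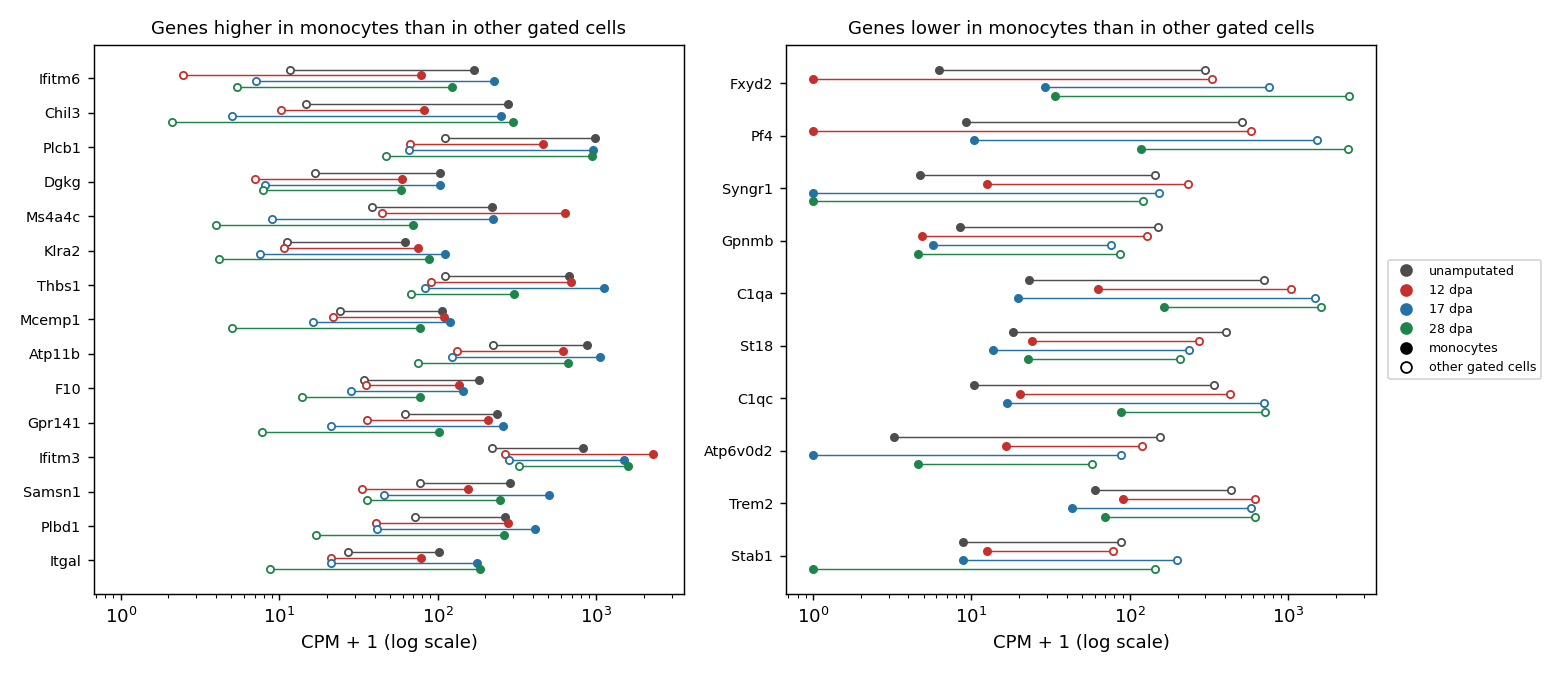
CPM plus 1 on a log axis for the 15 genes ranked highest (left) and the 10 ranked lowest (right) in monocytes against the other gated cells, with monocytes as filled points, the other cells as open points and a colour for each library. Ifitm6 runs from 77.6 to 226 CPM in monocytes and from 1.46 to 10.7 in the other cells.

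Between libraries, levels were compared as the log2 ratio of summed CPM with 1 CPM added to each, leaving out genes that reached 20 CPM in neither library. A gene below 20 CPM in either library was compared only if it was higher in the other, so the filter set its direction. The filter was applied separately to the other gated cells, so the members of a list compared there can differ. At 12 dpa, 491 of 7022 genes (6.99%) were at least 2-fold higher than in unamputated monocytes and 1478 (21.0%) at least 2-fold lower. At 17 dpa the counts were 241 (3.42%) and 420 (5.96%) of 7042, and at 28 dpa 893 (11.8%) and 874 (11.6%) of 7537. The median gene lay at -0.31, -0.11 and -0.05 on the log2 scale. Higher genes were 24.9%, 36.5% and 50.5% of those past 2-fold, and 45.7%, 48.1% and 53.8% once ratios were centred on the median gene. All 3 comparisons share the unamputated library.

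Genes induced by interferon were higher at 12 dpa than in the unamputated library. Of the 16 interferon-response genes compared, 14 were at least 2-fold higher than in unamputated monocytes and 0 lower, against 6.99% and 21.0% of all genes. Some, such as Ifit2 at 16.4 CPM in the unamputated library and 93.1 at 12 dpa, passed the 20 CPM filter only through the 12 dpa library. The filter set the direction of those genes. The median log2 ratio of the 16 genes was 2.07, or 2.38 relative to the median gene. In the other gated cells 7 genes of the list were compared, with a median of 0.29, so these medians cover different sets of genes. At 17 and 28 dpa the list medians were 0.41 and 0.40, with 1 of 9 genes higher and 0 lower at 17 dpa, against 3.42% and 5.96% of all genes, and 1 of 13 higher and 1 lower at 28 dpa, against 11.8% and 11.6%.

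Isg15, a ubiquitin-like protein attached to other proteins after interferon signalling, was at 21.3 CPM in the unamputated library, 272 at 12 dpa, 25.1 at 17 dpa and 32.6 at 28 dpa. Only the 12 dpa library was high, with the gene seen in 17 of 39 cells against 26 of 218, and the log2 ratio to unamputated was 3.61 (3.15 to 4.21). Irf7, a transcription factor that amplifies interferon production, was at 22.4, 159, 33.0 and 36.2 CPM, a log2 ratio of 2.78 (2.22 to 3.43) at 12 dpa. Ifi27l2a, a small interferon-inducible protein, was at 273, 1657, 407 and 322 CPM and was found in 29 of the 39 cells at 12 dpa. Bst2, the membrane protein that tethers enveloped virus particles, was at 79.8, 233, 73.8 and 105 CPM. Zbp1, a sensor of Z-form nucleic acid, was at 27.6, 136, 53.4 and 14.5 CPM. Cxcl10, a chemokine for T cells, was at 159, 36.1 and 7.25 CPM in the injured libraries, with a log2 ratio to unamputated of 1.65 at 12 dpa.

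The signal was spread over cells rather than held by 1. Per cell, the interferon list had a median of 9.04, 33.0, 15.6 and 8.50 UMIs per 10000. It took over 0.5% of UMIs in 8 of 218, 13 of 39, 5 of 82 and 3 of 39 cells, a share of 33.3% (19.1 to 50.2) at 12 dpa against 3.67% in the unamputated library. That level was chosen after the values were seen, and 6, 5, 3 and 1 cells lay within a factor of 1.25 of it. After thinning to 2000 UMIs, at least 2 UMIs of the list remained in 55.8% (48.9 to 62.5) of unamputated monocytes. The 12 dpa share was 78.9% (62.7 to 90.4), the 17 dpa share 77.8% (67.2 to 86.3) and the 28 dpa share 55.3% (38.3 to 71.4). By this measure 12 and 17 dpa both lay above the unamputated library, and their intervals overlapped. The unthinned shares were 95.0%, 97.4%, 93.9% and 89.7%. In each library 1 monocyte was too shallow to be thinned. Without the cell highest in each gene the list median at 12 dpa was 2.35, and without cells that carried RNA of other cell types it was 2.01.

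Promoters of the interferon genes often held the core of the interferon-stimulated response element, here GAAA, any 2 bases and GAAA again or, on the other strand, TTTC, any 2 bases and TTTC. The searched window ran from 250 bases before to 50 bases after the start of each gene in RefSeq (GRCm38.p6). It held the motif in 7 of the 13 interferon genes matched by symbol, against 1131 of 32851 promoters (3.44%), or 3.99% of genes counted once each. Other lists also held it more often than all genes, with 3 of 14 shared myeloid genes (21.4%), 2 of 14 repair and matrix genes (14.3%) and 2 of 15 tissue macrophage genes (13.3%). The remaining lists had 0 or 1 gene with it. A match is a description of the sequence only. The stretches of 3 genes that were high at 12 dpa are shown 5′ to 3′ on the gene's strand, with the motif in capitals. They lie at chr4:156200860-156200911, chr8:71537572-71537617 and chr5:92349078-92349117, all on the minus strand.
Isg15: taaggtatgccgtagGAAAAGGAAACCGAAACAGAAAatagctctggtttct
Bst2: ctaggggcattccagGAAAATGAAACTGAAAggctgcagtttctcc
Cxcl10: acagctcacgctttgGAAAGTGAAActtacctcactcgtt
In Isg15 the motif occurred 3 times in overlapping copies, 42 to 93 bases before the start counting the flanks shown. In Bst2 it occurred 2 times and in Cxcl10 1 time.

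Antigen presentation genes were also higher at 12 dpa. Of 11 MHC class II presentation genes compared, 7 were at least 2-fold higher and 0 lower, against 6.99% and 21.0% of all genes. The median log2 ratio was 1.21 in monocytes and 0.02 over the 9 genes compared in the other gated cells. H2-Ab1, a class II beta chain, was at 1110.2, 4765, 1309 and 1091 CPM. Cd74, the invariant chain that guides class II molecules, was at 2333, 9659, 3585 and 2562 CPM. H2-Aa, the alpha chain, was at 1065, 3535, 1272 and 888 CPM. In each of these 3 genes the 12 dpa library was the highest. The log2 ratio of Cd74 to unamputated was 2.05 (1.98 to 2.12) at 12 dpa and 0.62 (0.55 to 0.69) at 17 dpa.

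Class II RNA was unevenly held by monocytes of every library. It took over 1% of UMIs in 45 of 218 cells (20.6%, 15.5 to 26.6), 23 of 39 (59.0%, 42.1 to 74.4), 21 of 82 (25.6%, 16.6 to 36.4) and 9 of 39 (23.1%, 11.1 to 39.3). Near this level, within a factor of 1.25, lay 10, 2, 3 and 1 cells, and the level was chosen after the values were seen. Of the 13 cells at 12 dpa with over 0.5% interferon-list UMIs, 11 were also over the class II level, compared with 8 of 8 in the unamputated library, 0 of 5 at 17 dpa and 1 of 3 at 28 dpa. Without cells that held a UMI of Elane, Mpo, Prtn3, Ctsg or Ms4a3, granule genes described with the cycling cells, the list median at 12 dpa was 0.68. The rule had kept the dendritic set led by Cd209a below the monocyte sum. The list of other dendritic genes summed to 88.0, 113, 115 and 101 CPM, with Xcr1 and Clec9a at 0 at 12 dpa. Of its 2 genes compared at 12 dpa, 1 was at least 2-fold higher and 0 lower, against 6.99% and 21.0% of all genes. Their median log2 ratio was 1.23.

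Single genes of other lists were high at 12 dpa. Fcgr1, the high-affinity Fc receptor, which stood in the classical monocyte list, was at 23.9, 202, 23.5 and 3.62 CPM, a log2 ratio of 3.03 (2.52 to 3.63) at 12 dpa. Fth1, the ferritin heavy chain, was at 3445, 12798, 4245 and 6768 CPM and was found in all 39 cells. Of the 7 iron and heme genes compared with it included, 2 were at least 2-fold higher and 1 lower, against 6.99% and 21.0% of all genes, with a median log2 ratio of 0.01. Ctss, a cathepsin that trims the invariant chain, was at 622, 2146, 746 and 587 CPM. Apoe, a lipid carrier of macrophages, was at 633, 2685, 1559 and 1087 CPM. It stayed below the 4846, 8926, 5325 and 2745 CPM of the other gated cells. Of 13 tissue macrophage genes compared, Apoe among them, 4 were at least 2-fold higher at 12 dpa and 0 lower, against 6.99% and 21.0% of all genes, with a median log2 ratio of 0.82 in monocytes and 0.00 in the other gated cells. One of the higher genes was C1qa, seen in 2 cells with 87.5% of its UMIs in 1, and its log2 ratio moved from 1.46 to -0.87 without the highest cell of each library.

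Early response genes that tissue dissociation can induce moved with the 12 dpa library as well. Of 18 compared, 7 were at least 2-fold higher and 0 lower, against 6.99% and 21.0% of all genes, with a median log2 ratio of 0.73 in monocytes and -0.28 in the other gated cells. The median became 0.34 without cells that held RNA of other types. The summed level was 8573, 15096, 8530.4 and 6145 CPM. Atf3, a stress-induced transcription factor, was at 420.3 CPM in unamputated monocytes and 1172 at 12 dpa. The part of this list in the other 12 dpa differences was not tested.

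A part of the classical monocyte genes was lower at 12 and 28 dpa. Of 13 compared at 12 dpa, 7 were at least 2-fold lower and 2 higher, against 21.0% and 6.99% of all genes, with a median log2 ratio of -1.12. At 17 dpa 1 of 13 was lower and 0 higher, against 5.96% and 3.42%, with a median of -0.31 that became 0.01 without cells holding granule gene UMIs. At 28 dpa 6 of 14 were lower and 1 higher, against 11.6% and 11.8%, with a median of -0.55. The summed level of the list moved less, at 4403, 4028, 4425 and 3500.0 CPM. The list medians in the other gated cells were -0.13, -0.18 and -0.43, over 10, 11 and 11 genes.

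Hp, the haemoglobin-binding protein haptoglobin, stood at 245, 101, 181 and 43.5 CPM. Ccr2 itself was at 474, 442, 523 and 199 CPM, past 2-fold only at 28 dpa. Vcan, a matrix proteoglycan made by classical monocytes, was at 619, 256, 275 and 482 CPM.

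Several genes of the non-classical list were higher at 17 and 28 dpa. At 17 dpa 8 of 15 genes were at least 2-fold higher and 0 lower, against 3.42% and 5.96% of all genes. The median log2 ratio was 1.10, and -0.23 over the 8 genes compared in the other gated cells. At 28 dpa 6 of 15 were higher and 0 lower, against 11.8% and 11.6%. The median was 0.92, and -0.65 over the 9 genes compared in the other gated cells. Ace and Treml4, at 16.4 and 9.70 CPM in the unamputated library, passed the 20 CPM filter only through the later libraries. The filter set the direction of such genes. At 12 dpa 3 of 11 were higher and 2 lower, against 6.99% and 21.0%, with a median of -0.05 that became 0.80 when only genes of at least 50 CPM were compared. The summed level of the list was 1775, 2468, 2782 and 2518 CPM, higher in all 3 injured libraries. The share of monocytes that kept at least 2 UMIs of the list after thinning to 2000 UMIs was 78.3% (72.3 to 83.6) in the unamputated library and 84.2% (68.7 to 94.0) at 12 dpa. It was 91.4% (83.0 to 96.5) at 17 dpa and 81.6% (65.7 to 92.3) at 28 dpa, and all of these intervals overlapped the unamputated one. The unthinned shares were 99.5%, 97.4%, 98.8% and 97.4%.

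Ace, the angiotensin-converting enzyme, was at 16.4, 19.4, 50.2 and 79.7 CPM. The 2 later libraries were the high ones, with 12 of 82 and 13 of 39 cells against 15 of 218, and log2 ratios of 1.56 (0.91 to 2.30) and 2.21 (1.47 to 3.05). In the other gated cells Ace also rose, from 3.22 CPM in the unamputated library to 15.7 at 17 dpa and 8.04 at 28 dpa. The log2 ratios there were 1.99 and 1.10. Treml4, a receptor of patrolling monocytes, was at 9.70, 15.5, 26.7 and 58.0 CPM. Gngt2, a G-protein gamma subunit, was at 76.4, 159, 210.4 and 297 CPM and was found in 28 of 39 cells at 28 dpa. Pglyrp1, a peptidoglycan-binding protein, was at 49.2, 15.5, 148 and 94.2 CPM. Stap1, a signalling adaptor, was at 95.5, 237, 231 and 192 CPM and was higher in all 3 injured libraries.

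**Figure D3:**
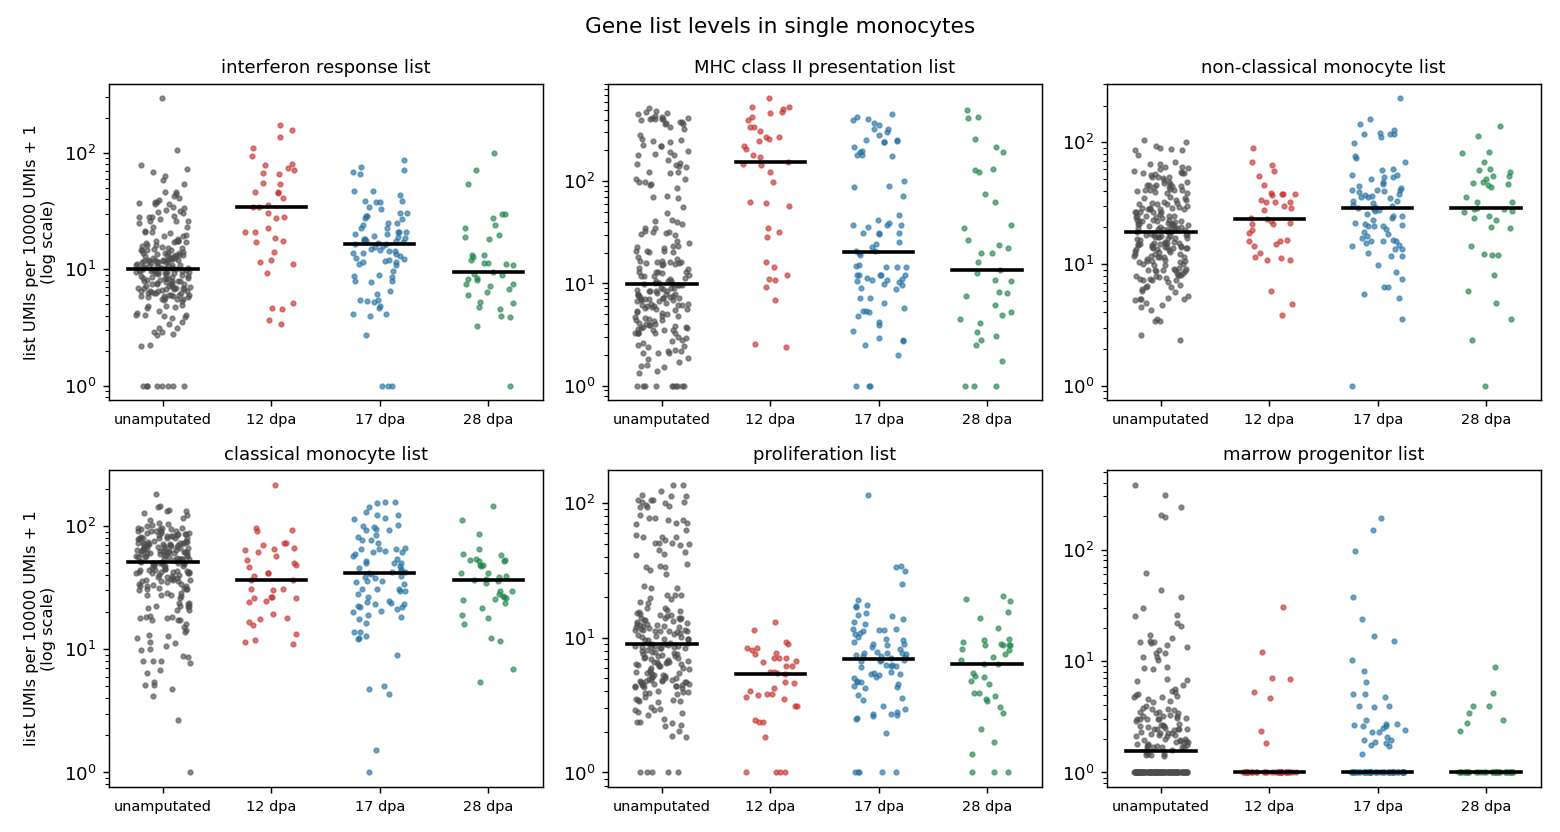
Each point is 1 monocyte, and the vertical axis is the UMIs of a gene list per 10000 UMIs of that cell, plus 1, on a log scale, with bars at the medians. The interferon and MHC class II medians are highest at 12 dpa, at 33.0 and 154 UMIs per 10000, and the non-classical medians are highest at 17 and 28 dpa, at 28.0 and 27.6.

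Cycling genes were highest in the unamputated library. Of 17 proliferation genes compared, 15, 9 and 15 were at least 2-fold lower at 12, 17 and 28 dpa and 0 higher, against 21.0%, 5.96% and 11.6% of all genes. The median log2 ratio was -4.75, -1.05 and -3.65. With genes at 0 UMIs set to a floor of 3 counts over the library's monocytes, the medians at 12 and 28 dpa were -2.20 and -2.80, since 9 and 5 of the genes were at 0 there. In the other gated cells the medians were -0.24, 0.42 and 0.28, over 11, 14 and 14 genes of the list. At 17 dpa the monocyte median was -1.98 without Scrublet-marked cells and -0.45 without cells holding granule gene UMIs. Mki67, a marker of cycling cells, was at 235, 7.76, 94.2 and 7.25 CPM in 71, 2, 9 and 2 cells, and its log2 ratio at 17 dpa moved from -1.31 to 0.12 without cells holding granule gene UMIs.

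Cells with over 0.5% of their UMIs from the proliferation list numbered 30 of 218 in the unamputated library (13.8%, 9.48 to 19.1) and 1 of 82 at 17 dpa (1.22%, 0.0309 to 6.61). There were 0 of 39 at 12 dpa and 0 of 39 at 28 dpa, and a count of 0 allows a share of up to 7.69% by the limit of 3 counts and 9.03% by the exact interval. Of the 30 cells, 16 were marked by Scrublet, and 15 unamputated cells lay within a factor of 1.25 of the level. The part of doublets in this result was not tested. After thinning to 2000 UMIs, at least 2 UMIs of the list remained in 53.5% (46.6 to 60.2) of unamputated monocytes. The 12 dpa share was 15.8% (6.02 to 31.3), the 17 dpa share 33.3% (23.2 to 44.7) and the 28 dpa share 34.2% (19.6 to 51.4). The 28 dpa interval overlapped the unamputated one, and those of 12 and 17 dpa lay below it. The unthinned shares were 90.8%, 71.8%, 80.5% and 76.9%.

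Some of these cells carried the primary granule genes of marrow precursors, which promyelocytes and early monocyte precursors transcribe and mature monocytes do not. Elane, neutrophil elastase, was at 393, 0, 251 and 0 CPM, at least 33.7-fold lower at 12 dpa and at least 36.1-fold lower at 28 dpa than in the unamputated library. Mpo, myeloperoxidase, was at 243, 0, 408 and 0 CPM, and Ctsg, cathepsin G, was at 201, 0, 179 and 0 CPM. Prtn3, proteinase 3, was at 321, 3.88, 392 and 3.62 CPM. In the other gated cells Elane reached at most 0.149 CPM. At least 1 UMI of Elane, Mpo, Prtn3, Ctsg or Ms4a3 was present in 71 of 218 unamputated cells (32.6%, 26.4 to 39.2), 1 of 39 (2.56%, 0.0649 to 13.5), 9 of 82 and 1 of 39 (2.56%, 0.0649 to 13.5).

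At least 3 of the 5 granule genes were seen together in 21 unamputated cells, 3 cells at 17 dpa and 0 cells at 12 and 28 dpa. The 21 cells had a median of 18698 UMIs against 8596 in the other unamputated monocytes, and a median of 34 Ly6c2 UMIs against 5. Mki67 or Top2a was seen in 18 of the 21 and in 61 of the other 197, Ccr2 in 16 and Csf1r in 15. Scrublet marked 11 of the 21. At 17 dpa, 1 cell gave 43.3% of the UMIs of the marrow progenitor list. Bone marrow is not named in the labels, and P2 tissue includes bone.

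Some inflammatory signal genes were higher at 12 dpa, and Il1b was higher at both 12 and 17 dpa. Of 16 genes of the list compared, 6 were at least 2-fold higher and 0 lower at 12 dpa, against 6.99% and 21.0% of all genes. At 17 dpa 2 of 16 were higher and 1 lower, against 3.42% and 5.96%, and at 28 dpa 1 of 17 was higher and 3 lower, against 11.8% and 11.6%. The list medians were 0.53, 0.41 and -0.51 on the log2 scale. Il1b, the cytokine interleukin-1 beta, was at 335, 1300, 1050.2 and 174 CPM in monocytes and 355, 241, 235 and 123 in the other gated cells. It was found in 25 of 39 cells at 12 dpa and 55 of 82 at 17 dpa, with log2 ratios to unamputated of 1.96 (1.77 to 2.14) and 1.65 (1.50 to 1.80). Cxcl2, a neutrophil-attracting chemokine, was at 411, 1199, 1399 and 232 CPM. Cd14, the co-receptor for bacterial lipopolysaccharide, was at 640.3, 1490.2, 1270 and 772 CPM.

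The summed RNA of neutrophil genes was highest at 17 dpa. The list summed to 3683, 2833, 7204 and 475 CPM, while of its 8 genes compared at 17 dpa 1 was at least 2-fold higher and 1 lower, against 3.42% and 5.96% of all genes, with a median log2 ratio of 0.38. It took over 1% of UMIs in 13, 3, 8 and 1 monocytes, and 1 cell gave 31.7% of it at 17 dpa and 75.1% at 12 dpa. S100a8, a calcium-binding protein abundant in neutrophils, was at 1696, 959, 2618 and 170.3 CPM. Without cells that held over 1% neutrophil-list or structural UMIs, it was at 717 CPM in unamputated monocytes and 169 at 17 dpa, a log2 ratio of -2.08, though it is a gene of the list that chose those cells. In the same cells the log2 ratio at 17 dpa was 1.41 for Il1b and 1.03 for Cxcl2. In cells led by Plac8 and Ly6c2 the ratio of Il1b was 1.61, while that of Cxcl2 was 0.90 in place of 1.77 and no longer past 2-fold.

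The highest genes by ratio mostly came from few cells. At 12 dpa Nkain2, Col28a1, Ptn and Itih5 were found in 1 or 2 cells, and Isg15 and Ramp3 in 17 and 9. At 17 dpa the highest named genes were Vpreb1, Hpgd, Thbs4, Fam78b, G0s2 and Acan, found in 2 to 9 cells. At 28 dpa they were Retnla, Serpina3n, Ccl7, Mmp3, Il17d and C4b, found in 1 to 4 of 39 cells, with 59.2% to 100% of the UMIs in 1 cell. Retnla was at 0, 0, 42.4 and 431 CPM, and all of its 28 dpa UMIs came from 1 cell. RNA of fibroblast and mural genes was high in the same library: the fibroblast list summed to 7605, 9368, 9293 and 20482 CPM and the mural list to 525, 46.6, 206 and 1569 CPM. The keratinocyte list went the other way, at 1555, 345, 121 and 388 CPM. Of the unamputated UMIs of Krt6a and Krt16, keratins outside that list, 96.2% and 92.8% came from the highest cell of each gene. Fibroblast, keratinocyte and mural lists together took over 1% of UMIs in 16, 1, 3 and 7 monocytes and over 2%, the level looked at first, in 11, 1, 2 and 6, and 1 cell gave 49.5% of the fibroblast UMIs at 28 dpa. Ly6c1 was at 11.6, 19.4, 12.6 and 377 CPM, in 6 of 39 cells at 28 dpa.

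At 28 dpa monocytes held less RNA of Irf8 and of some glycolysis genes. Irf8, a transcription factor needed for monocyte development, was at 235, 89.3, 148 and 50.7 CPM, a log2 ratio of -2.19 (-3.09 to -1.45) at 28 dpa. Gapdh, a glycolytic enzyme, was at 791 CPM in unamputated monocytes and 333 at 28 dpa. Of 13 glycolysis and hypoxia genes compared at 28 dpa, 5 were at least 2-fold lower and 0 higher, against 11.6% and 11.8% of all genes, with a median log2 ratio of -0.81 in monocytes and -0.47 in the other gated cells. Ptgs2, the inducible cyclooxygenase, was at 167 CPM in unamputated monocytes and 21.7 at 28 dpa. It was also lower in the other gated cells, at 97.2 and 18.0 CPM, with log2 ratios of -2.89 in monocytes and -2.37 there. Timp2, an inhibitor of matrix metalloproteinases, was among the higher genes, at 154, 159, 243 and 779 CPM, and was found in 26 of 39 cells at 28 dpa. Without cells that held RNA of other types Timp2 was at 40.7 CPM in unamputated monocytes and 192 at 28 dpa. The log2 ratio was then 2.21 in place of 2.33. The cells left at 28 dpa still held fibroblast RNA, with Dcn at 103 CPM against 8.14 in the unamputated library and Lum at 103 against 15.3. In the other gated cells the log2 ratio of Timp2 was 1.05. The part of fibroblast RNA in the Timp2 difference was not tested.

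The repair and matrix list gave no steady direction. Its median log2 ratio was 0.55, -0.42 and 0.47 at 12, 17 and 28 dpa, and the 28 dpa value became -0.65 without cells that held RNA of other types. Fn1, fibronectin, was at 1884, 842, 1369 and 3438 CPM. Of 19 genes shared by myeloid cells, 7 were at least 2-fold higher and 1 lower at 12 dpa, against 6.99% and 21.0% of all genes. At 17 dpa 0 were past 2-fold, against 3.42% and 5.96%, and at 28 dpa 0 were higher and 3 lower, against 11.8% and 11.6%. Spi1, the transcription factor PU.1, was at 253, 326, 251 and 261 CPM.

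**Figure D4:**
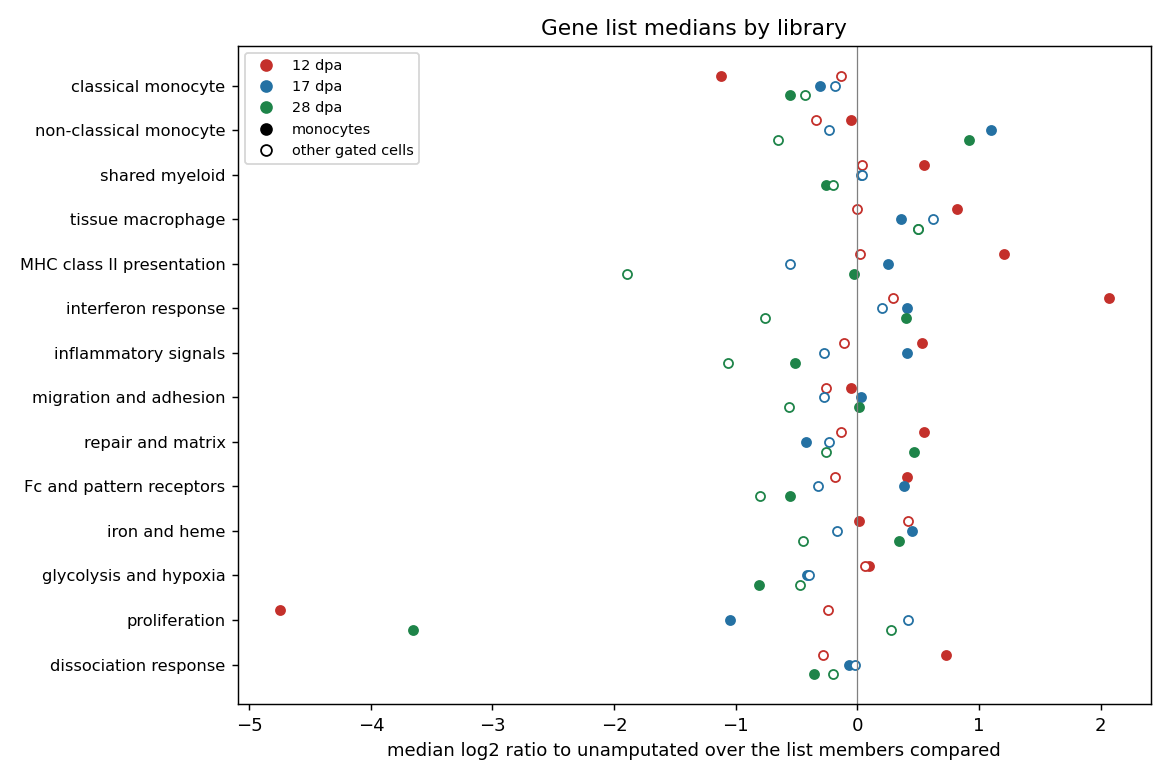
Median log2 ratio to the unamputated library over the compared members of each of 14 gene lists, with a colour for each time after amputation, filled points for monocytes and open points for the other gated cells. The members compared can differ between monocytes and the other cells. The interferon list at 12 dpa lies at 2.07 in monocytes and 0.29 in the other cells, and the proliferation list lies at -4.75, -1.05 and -3.65 in monocytes.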

How the data were processed

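The authors deposited filtered gene-by-barcode matrices of raw UMI counts, made with Cell Ranger 7.1.0 per the file headers, with the mouse build mm10 named in the submitters' processing notes. Each of the 4 groups has 1 library. Libraries held 8813 to 16045 barcodes, of which 6942 to 11954 were kept. Counts of the chosen cells were summed per library (257690 to 2681549 UMIs) and scaled to CPM. Genes that reached 20 CPM in either library were compared, without the 24 rule genes, at a pseudocount of 1 CPM, and called at a 2-fold ratio. Ratio intervals are exact conditional binomial and share intervals exact Clopper-Pearson (scipy 1.17.1). Scrublet (scanpy 1.11.5) ran at 0.8% per 1000 barcodes. Named genes were the rule genes, the 15 highest and 10 lowest against other gated cells, the 6 most extreme in each direction per comparison at 50 CPM and 20 UMIs, and up to 4 per gene list. Other genes were named after their values were seen. The members and lists were chosen with earlier results of these data known. The comparison was checked on simulated sums, drawn as Poisson counts from the summed unamputated profile. These hold no variation between cells, so the check does not cover genes whose level is set by 1 cell. Some single-gene results are not reported here.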

Additional observations from a re-analysis of the deposited data

Results flagged for a closer look

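Cells with at least 4 UMIs of Ear2, Adgre4, Plac8 and Ly6c2 also lay outside the myeloid gate, in data the comparisons do not use. They numbered 513 in the unamputated library, 41 at 12 dpa, 200 at 17 dpa and 19 at 28 dpa. Of these, 363, 0, 147 and 0 had at least 10 UMIs of Camp, Ngp and Ltf, and 139, 39, 51 and 19 had fewer than 3 UMIs of Csf1r, Lyz2 and C1qb.

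At 12 dpa 28 of the 39 monocytes were called female, 0 male and 11 neither, while the other libraries had 0 female monocytes. The labels name both sexes for each library.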

How the results depend on the processing

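No paired analysis was possible because each group is 1 library. The comparison within cells led by Ear2 and Adgre4 alone was not run, since too few such cells were found. The alternatives that left out cells with RNA of other types, cells with granule gene UMIs or the highest cell of each gene, and the one that asked the counting interval to exclude 0, were chosen after seeing the data. The range set around a list median ran from the median lower to the median upper counting limit of its genes, and is not an exact interval of the median. Of 765 alternative values of list medians, 733 stayed within that range, 20 moved outside it and 12 reversed. Of 3417 alternative values of named genes, 3027 stayed within the gene's counting interval, 362 moved and 28 reversed. The interferon median at 12 dpa ran from 1.50 to 2.38. With 39 monocytes in each of 2 libraries, 1 cell can set a gene's level, and levels near 20 CPM at 12 and 28 dpa rest on few UMIs. Where no cause is named, the cause was not tested.

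The share of monocytes in the unamputated library was 1.58% with a looser filter on cells, 2.78% with a stricter one, 1.23% with Csf1r required, 1.59% without cells with RNA of other types, 1.23% without cells with granule gene UMIs, 1.24% after thinning to 3000 UMIs and 7.94% of gated cells. At 12 dpa it was 2.75% of gated cells. At 17 dpa it was 0.702% with Csf1r required, 0.651% after thinning and 4.04% of gated cells. At 28 dpa it was 0.197% after thinning and 1.34% of gated cells. The share led by Ear2 and Adgre4 was 0% at 12 dpa with the stricter filter and 3.92% at 17 dpa after thinning.

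Counts of genes past 2-fold, higher and lower, were 1048 and 3029 at 12 dpa, 594 and 1279 at 17 dpa, and 1695 and 1913 at 28 dpa when genes of at least 5 CPM were compared. With at least 50 CPM they were 288 and 658, 94 and 135, and 444 and 400. The changed number of genes tested accounts for these by construction. Centring on the median gene gave 831 higher genes at 12 dpa. At 17 dpa sums thinned to the same total gave 540 and 911, the highest cell of each gene left out gave 136 higher genes, and lower genes numbered 750 with Csf1r required and 678 without cells with granule gene UMIs. The share of higher genes among those past 2-fold moved from 24.9% to 16.4% at 12 dpa, from 36.5% to 20.4% at 17 dpa and from 50.5% to 38.3% at 28 dpa without the highest cell of each gene, and to 38.0% at 28 dpa without cells with RNA of other types.

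Without cells with granule gene UMIs, list medians were 0.68 for MHC class II at 12 dpa and -0.58 at 28 dpa, 0.01 for classical genes, -0.01 for tissue macrophage genes and -0.45 for proliferation at 17 dpa, -0.44 for repair and matrix at 28 dpa, and 0.47 and 0.36 for the marrow progenitor list at 12 and 28 dpa. Without cells with RNA of other types they were 0.34 for the dissociation response at 12 dpa, and at 28 dpa 0.46 for MHC class II, -0.65 for repair and matrix and 0.64 for iron and heme. With a marker sum of at least 3 UMIs they were 0.03 for tissue macrophage genes at 17 dpa and 0.45 for iron and heme at 28 dpa. With at least 6 UMIs they were 0.59, -0.31 and 0.46 for MHC class II, repair and matrix, and iron and heme at 28 dpa. With Csf1r required repair and matrix at 28 dpa was -0.11. Without Scrublet-marked cells proliferation at 17 dpa was -1.98 and iron and heme at 28 dpa 0.15. With genes of at least 5 CPM tissue macrophage genes at 17 dpa were at 0.00, and repair and matrix and iron and heme at 28 dpa at -0.24 and 0.18. With at least 50 CPM non-classical genes at 12 dpa were at 0.80 and iron and heme at 28 dpa at 0.66. With cells weighted equally tissue macrophage genes at 17 dpa were at -0.10 and repair and matrix at 28 dpa at -0.30. Without the highest cell of each gene repair and matrix and iron and heme at 28 dpa were at -0.24 and 0.51.

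Log2 ratios of named genes that reversed at 12 dpa were those of C1qa (-0.87 without its highest cell), Col28a1 (-0.85 without its highest cell and -1.17 without Scrublet-marked cells) and Egr1 (-0.55 with a sum of at least 6, -0.24 with Csf1r, -0.41 without cells with RNA of other types and -0.39 without its highest cell). At 17 dpa, without cells with RNA of other types, Ccl3 was at -0.03, Cd63 at -0.24, Krt16 at 0.63, Krt6a at 1.29 and Thbs4 at -0.97. Without Scrublet-marked cells Krt16 was at 0.43 and Krt6a at 1.31. Without cells with granule gene UMIs Cd63 was at -0.21, H2-Aa at -0.23 and Mki67 at 0.12, and with cells weighted equally Cd63 was at -0.16. At 28 dpa, without cells with RNA of other types, C4b was at -0.56, Igf1 at -1.95, Il17d at -0.97, Mmp3 at -1.28 and Serpina3n at -0.56. With a sum of at least 6 C4b was at -2.21 and Igf1 at -3.48, and with Csf1r required Serpina3n was at -1.38. C1qa was at -1.60 in cells led by Plac8 and Ly6c2 and -0.89 without its highest cell.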
